A study of Macaca mulatta with 4 samples.

Results

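The genes described here are 10 cell adhesion molecules of the immunoglobulin (Ig) superfamily, chosen by symbol, and all 10 have a row among the 21314 gene rows of the count table. They are PECAM1 and ESAM, which are largely restricted to endothelium and blood cells, ICAM1 and VCAM1, which inflammatory cytokines induce on endothelium, MCAM and BCAM of vascular wall and epithelia, THY1 and ALCAM, which are common on mesenchymal cells, and NCAM1 and L1CAM, which are best known from the nervous system. They were measured by RNA sequencing in RF/6A, an established rhesus macaque (Macaca mulatta) line whose labels give the cell type as chorioretinal. The cells were untreated and grown in serum-supplemented Dulbecco's medium, and all 4 libraries, titled static, form 1 group. No second cell type or treatment was analysed here, so genes were compared within libraries and no group of libraries was compared with another.

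Ig-family adhesion molecules carry extracellular Ig domains that bind the same molecule on a neighbouring cell, another Ig molecule, an integrin or the matrix. In endothelium, PECAM1 and ESAM sit at contacts between cells, and ICAM1 and VCAM1 serve as docking sites for leukocyte integrins. THY1, ALCAM and NCAM1 are found on fibroblasts, mesenchymal progenitors and developing neural cells among others, so none of them marks 1 lineage alone.

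The libraries held between 20366946 and 20550610 estimated counts. Levels are CPM, counts scaled to the size of the library, with sizes adjusted by TMM (trimmed mean of M-values), which corrects for differences in composition. A gene was called expressed where each of the 4 libraries reached 1 CPM. A floor of 3 counts per library, used here as the limit that a count of 0 allows, equalled 0.135 to 0.185 CPM. Nothing in the labels says that the libraries came from separate cultures, so SDs describe the spread between these 4 samples, which may be technical. No transcript lengths were used, and a long transcript collects more reads than a short one. The order of members given here is therefore an order of reads and not of molecules. Library 2 stood apart from the others across the table, with 16.02% of its counts on ribosomal protein genes against 6.40% to 7.03% elsewhere. Under TMM it was the separated library, by Dixon's gap test, on the low side for 11.2% and on the high side for 21.8% of the 12453 genes whose mean reached 1 CPM.

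Of the 10 members, 8 were expressed in every library, against 52.9% of all rows of the table. The exceptions were ESAM, which missed 1 CPM in library 4 alone, and L1CAM, which had no count. Without library 4 ESAM also passed and 9 of 10 were expressed. ALCAM stood alone on top, THY1, NCAM1, MCAM, BCAM and ICAM1 lay between 19.9 and 165 CPM, and PECAM1, VCAM1 and ESAM lay near the threshold. ALCAM took 63.6% ± 5.02 of the summed CPM of the members (SD, n = 4), whereas PECAM1 took 0.26% ± 0.0536 and ESAM 0.172% ± 0.104.

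**Figure D1:**
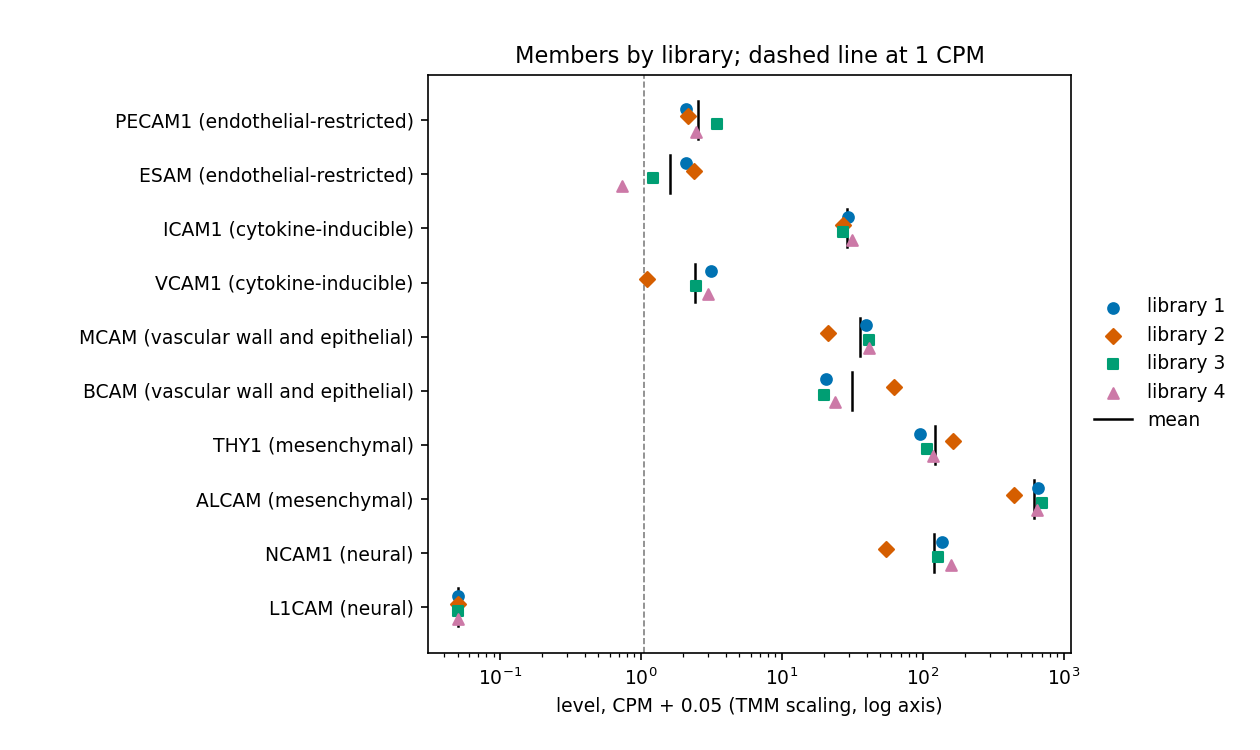
Level of each member in each RF/6A library, in CPM + 0.05 on a log axis (TMM scaling), with black bars at the mean of 4 libraries and a dashed line at 1 CPM. PECAM1, ESAM and VCAM1 lie between 0.678 and 3.41 CPM, ALCAM lies between 442 and 701 CPM, and all L1CAM points sit at the left edge, at a count of 0.

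The endothelial-restricted pair was low but detected. PECAM1 (ENSMMUG00000011809, chromosome 16), the homophilic adhesion molecule CD31 of endothelial contacts, platelets and leukocytes, had 2.05, 2.10, 3.41 and 2.40 CPM in libraries 1 to 4, from 45, 34, 76 and 53 counts. Its mean was 2.49 ± 0.636 CPM (SD, n = 4), with an exact 95% Poisson interval of 2.19 to 2.89 CPM on the summed count. Library 3 was the high one, and the other 3 lay close together. ESAM (ENSMMUG00000008486, chromosome 14), a tight junction molecule of endothelial cells and platelets, had 2.05, 2.34, 1.17 and 0.678 CPM, from 45, 38, 26 and 15 counts. Its mean was 1.56 ± 0.771 CPM (SD, n = 4; Poisson interval 1.25 to 1.79 CPM). Its libraries ranged over 3.46-fold under TMM, and library 2 was the highest. The PECAM1 and ESAM ranges overlapped. PECAM1 was the higher in libraries 3 and 4, ESAM in library 2, and in library 1 their counts were equal.

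Markers of endothelial cells were mostly as low. Of 14 matched genes of a list of 18, 2 were expressed, FLT1 and EGFL7, against 52.9% of all rows. KDR missed 1 CPM in library 2 alone, at 0.432 CPM, so 3 were expressed without library 2. Another 9 never reached 1 CPM, ROBO4 among them with a count of 0. The summed level of the list lay between 42.9 and 138 CPM, most of it FLT1 and EGFL7. CDH5, the cadherin of endothelial junctions, measured 0.601 ± 0.305 CPM (SD, n = 4), VWF 0.432 ± 0.282 CPM, TEK 0.226 ± 0.177 CPM and KDR 1.62 ± 0.896 CPM. FLT1 was far higher, at 90.8 ± 49.1 CPM with 19.7 CPM in library 2, and EGFL7 measured 10.7 ± 6.37 CPM. In bulk RNA, a low level in every cell and a high level in a few cells cannot be told apart, so the values do not say how many cells carried PECAM1 or ESAM transcripts.

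The cytokine-inducible pair differed strongly in unstimulated cells. ICAM1 (ENSMMUG00000014896, chromosome 19), the ligand of leukocyte beta2 integrins, had 29.5, 27.1, 27.4 and 31.7 CPM in libraries 1 to 4, with a mean of 28.9 ± 2.15 CPM (SD, n = 4). Its coefficient of variation was 7.45%, the smallest of the 9 members with counts under TMM, and library 2 lay beside the others. With plain CPM it was 18.8%, above the 10.8% of THY1, and without library 2 MCAM (3.10%) and ALCAM (4.13%) were below the 7.45% of ICAM1. Without TMM, library 2 lay below the rest at 21.5 CPM, against 29.7 to 34.1 CPM in libraries 1, 3 and 4. VCAM1 (ENSMMUG00000022906, chromosome 1), the ligand of integrin alpha4 beta1, had 3.09, 1.05, 2.43 and 2.94 CPM, with a mean of 2.38 ± 0.93 CPM (SD, n = 4). Library 2 was the low one, at 17 counts against 54 to 68. Its 0.832 CPM without TMM scaling took VCAM1 below the threshold, so that 7 members were expressed. ICAM1 was above VCAM1 in all 4 libraries, and the groups of values did not overlap.

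Genes of the pathway through which tumour necrosis factor induces ICAM1 and VCAM1 were mostly expressed in these unstimulated cells. Of 17 matched genes of a list of 18 on receptors, kinases, NF-kB subunits and induced genes, 13 were expressed, against 52.9% of all rows. REL and TNFAIP3 missed 1 CPM in library 2 alone, at 0.617 and 0.987 CPM, so 15 were expressed without it. The receptor TNFRSF1A measured 158 ± 41.4 CPM (SD, n = 4), and the NF-kB subunit RELA measured 89.4 ± 27.3 CPM. The selectin genes of stimulated endothelium were the other exceptions, SELE with 3 counts in library 1 and none elsewhere, and SELP with no count. Other induced genes of the list were expressed, with CCL2 at 50.7 ± 15.3 CPM, IRF1 at 47.4 ± 5.29 CPM and NFKBIA at 28.0 ± 2.46 CPM.

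MCAM and BCAM, which both bind laminins, lay on opposite sides in library 2. MCAM (ENSMMUG00000004764, chromosome 14), known as CD146 on endothelial cells, pericytes, smooth muscle and mesenchymal stromal cells, had 39.3, 21.3, 41.6 and 41.5 CPM in libraries 1 to 4. Its mean was 35.9 ± 9.78 CPM (SD, n = 4), and 44.1 ± 1.37 CPM without library 2 after scaling again (n = 3). BCAM (ENSMMUG00000003273, chromosome 19), the Lutheran blood group glycoprotein and receptor for laminin alpha5, had 20.4, 62.2, 19.9 and 23.7 CPM. Its mean was 31.5 ± 20.5 CPM (SD, n = 4), and 23.01 ± 2.24 CPM without library 2 (n = 3). Library 2 was thus the lowest for MCAM and the highest for BCAM, and these were the 2 members, of 9 whose mean reached 1 CPM, with a library apart by Dixon's test, against 33.8% of all genes at that level. In libraries 1, 3 and 4 MCAM collected more reads than BCAM, and in library 2 fewer.

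Laminin partners were abundant where they could be matched. All 4 matched laminin chains were expressed, and LAMA5, which encodes the chain that BCAM recognises, matched no row and was not analysed here. LAMA4, a chain of vascular basement membrane that MCAM is known to bind, measured 240.2 ± 10.2 CPM (SD, n = 4), and library 2, the lowest, had 226 CPM. LAMB1 measured 653 ± 16.1 CPM, and LAMC1 measured 275 ± 103 CPM with 123 CPM in library 2.

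The mesenchymal pair included the highest member. ALCAM (ENSMMUG00000009107, chromosome 2), an activated-leukocyte adhesion molecule also known as CD166 that binds itself and the lymphocyte receptor CD6, had 659, 442, 701 and 646 CPM in libraries 1 to 4. Its mean was 612 ± 116 CPM (SD, n = 4), above 98.97% of the rows of the table, and library 2 was the low one. The other partner, CD6, had no count. THY1 (ENSMMUG00000008923, chromosome 14), the GPI-anchored CD90 of fibroblasts, mesenchymal stromal cells and neurons, had 95.1, 165, 107 and 118 CPM, with a mean of 121 ± 30.8 CPM (SD, n = 4). Library 2 was the high one. Every one of the 14 matched mesenchymal markers of a list of 17 was expressed, against 52.9% of all rows, with a summed level between 41455 and 47262 CPM. Epithelial markers were expressed in 7 of 11 matched genes (63.6%, against the same 52.9%), with a summed level between 1284 and 3755 CPM. KRT18 led them, at 951 to 1077 CPM in libraries 1, 3 and 4 and 3487 CPM in library 2.

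The neural pair was split between a clearly expressed gene and one without reads. NCAM1 (ENSMMUG00000004688, chromosome 14), the CD56 molecule of neurons, glia, natural killer cells and some mesenchymal cells, had 137, 55.3, 128 and 159.6 CPM in libraries 1 to 4. Its mean was 120.1 ± 45.2 CPM (SD, n = 4), and 153 ± 17.5 CPM without library 2 after scaling again (n = 3). L1CAM (ENSMMUG00000003379, chromosome X), an axonal adhesion molecule, had 0 counts in each library, which allows a level up to the floor of 0.135 to 0.185 CPM. The floor covers counting error and sets no bound on reads assigned to another row. Set against the floor of 3 counts in each library, NCAM1 collected at least 299-fold to 1176-fold more reads than L1CAM.

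The enzymes that add polysialic acid, the sugar chain of embryonic and neural NCAM1, had few reads or none. ST8SIA2 had no count, and ST8SIA4 had 3 to 9 counts per library, or 0.287 ± 0.121 CPM (SD, n = 4). FGFR1, a growth factor receptor that NCAM1 engages, was expressed at 160.1 ± 38.03 CPM, and library 2 had 103 CPM. Of 16 matched neural markers, 6 were expressed (37.5%, against 52.9% of all rows). Another 8 never reached 1 CPM, and 3 of these, NEFM, DCX and ELAVL4, had a count of 0. The list summed to between 87.9 and 93.8 CPM, led by MAP2 at 29.5 ± 10.9 CPM and NEFL at 28.9 ± 1.02 CPM.

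The contrast of endothelial-restricted with mesenchymal and neural members went the same way in every library except where L1CAM was the partner. PECAM1 lay below THY1 by a mean difference of -5.34 ± 0.50 log2(CPM + 0.5) units (PECAM1 minus THY1, SD, n = 4), below ALCAM by -7.68 ± 0.28 and below NCAM1 by -5.25 ± 0.65. ESAM lay further below, at -5.94 ± 0.59 against THY1, -8.28 ± 0.80 against ALCAM and -5.85 ± 1.17 against NCAM1. Across libraries PECAM1 had 205-fold to 322-fold fewer reads than ALCAM and 26.4-fold to 67.0-fold fewer than NCAM1. Each of these 6 differences was negative in 4 of 4 libraries, and both differences from L1CAM were positive in 4 of 4.

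Each of the 8 pairs had a two-sided exact sign-flip permutation p of 0.13 (rounded), the smallest that 4 libraries allow, and the same adjusted p of 0.13 over the 8 pairs, so none could pass 0.05. Against the floor of 3 counts, PECAM1 collected at least 11.3-fold to 25.3-fold more reads than L1CAM and ESAM at least 5-fold to 15-fold more. These folds are of reads, since lengths were not used.

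**Figure D2:**
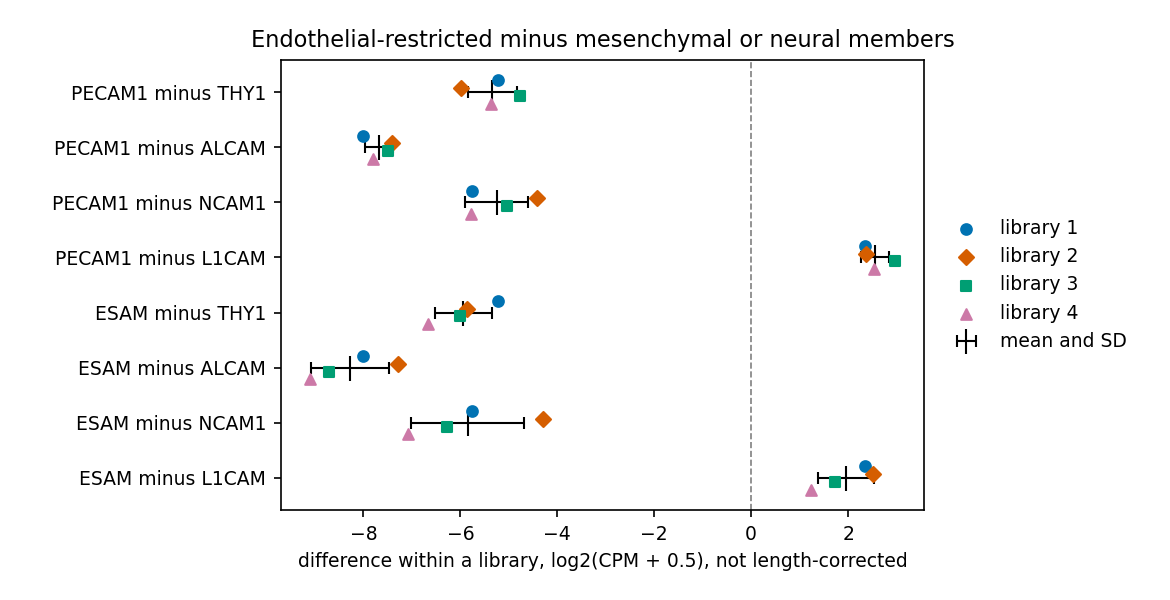
Difference between each endothelial-restricted member (PECAM1, ESAM) and each mesenchymal or neural member (THY1, ALCAM, NCAM1, L1CAM) within each library, in log2(CPM + 0.5) units without length correction, with the mean and SD over 4 libraries. Differences from THY1, ALCAM and NCAM1 lie between -9.10 and -4.29, and those from L1CAM, which had no count and rests on the added 0.5, lie between 1.24 and 2.97.

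Ordered by mean CPM, the members ran ALCAM, THY1, NCAM1, MCAM, BCAM, ICAM1, PECAM1, VCAM1, ESAM and L1CAM. Of the 9 steps between neighbours, 4 kept their order in 4 of 4 libraries without overlap, namely ALCAM over THY1, NCAM1 over MCAM, ICAM1 over PECAM1 and ESAM over L1CAM. The other 5 neighbours overlapped in their ranges. THY1 was above NCAM1 in library 2 alone, and BCAM was above ICAM1 in library 2 alone, so both of those mean orders rest on that library. BCAM also exceeded NCAM1 there, at 62.2 and 55.3 CPM, although it was lower in the other 3.

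Under TMM library 2 was the lowest library for 5 of 9 members with counts (ALCAM, NCAM1, MCAM, ICAM1 and VCAM1) and the highest for 3 (THY1, BCAM and ESAM), against 48% and 43.8% of the 12453 genes whose mean reached 1 CPM. The members were thus at the ends of the range about as often as other genes. With plain CPM it was the lowest for 6, PECAM1 added, and the highest for THY1 and BCAM, against 59.7% and 31.6%. The log2 ratio of library 2 to the median of the other libraries ranged, under TMM, from -1.30 for NCAM1 to 1.59 for BCAM, around a median of -0.073 over the 12453 genes. With plain CPM that median was -0.49, and the ratio was -1.74 for NCAM1 and 1.15 for BCAM.

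The biological coefficient of variation, estimated for each gene on its own in edgeR, had a median of 6.68% over the kept genes without library 2, against 32.8% with all 4 libraries. For NCAM1 it was 43.1% over 4 libraries and 11.1% without library 2, and for ALCAM 20.1% and 4.03%. For ESAM it was 49.4% and 49.7%, and for PECAM1 20.5% and 22.9%, so leaving out library 2 did not lower it for the endothelial-restricted pair. The highest PECAM1 value was in library 3 and the lowest ESAM value in library 4. Without library 3 the PECAM1 value was at the lower limit of the estimate, 0.988%, and without library 4 the ESAM value was 30.6%. This pair had 15 to 76 counts per library. VCAM1, with 17 to 68 counts, had 41.3% over 4 libraries and 0.988%, the lower limit, without library 2. The cause of this difference was not tested. ICAM1 had 6.15% over 4 libraries and 6.34% without library 2.

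**Figure D3:**
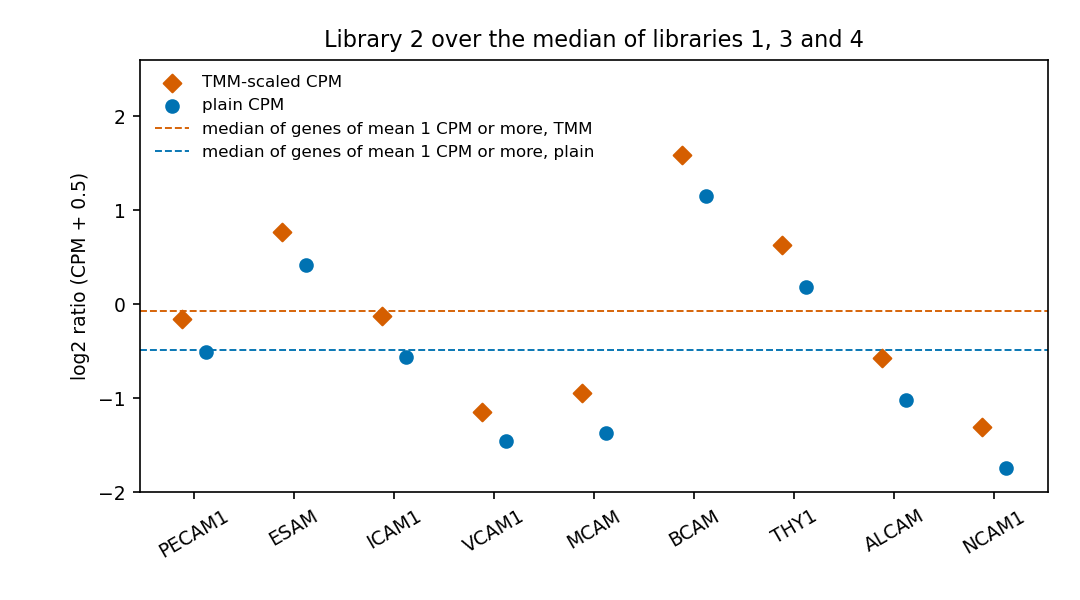
Log2 ratio of library 2 to the median of libraries 1, 3 and 4, in CPM + 0.5, for the 9 members with counts, under TMM scaling (diamonds) and plain CPM (circles), with dashed lines at the median over genes of mean 1 CPM or more. BCAM lies at 1.59 under TMM and NCAM1 at -1.30, while PECAM1 at -0.16 and ICAM1 at -0.12 lie near the dashed line.

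Among 81 further Ig-family adhesion genes, 72 matched a row and 38 were expressed, or 52.8%, next to 52.9% of all rows. The 2 shares have unlike bases, because all rows include those without a symbol, which no list could hold. The share over rows with a symbol was not computed. Of the listed Ig-family genes, 12 had no count. The broad group around basigin was detected most, with 12 of 15 expressed. BSG, the basigin that escorts lactate transporters, measured 194 ± 38.6 CPM (SD, n = 4), the receptor tyrosine kinase AXL 177 ± 93.4 CPM with 36.8 CPM in library 2, MPZL1 156 ± 13.7 CPM and NPTN 132 ± 50.1 CPM.

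Of the vascular and junctional relatives of PECAM1 and ESAM 5 of 9 were expressed, or 55.6%, near the 52.9% of all rows. ICAM2 matched no row. CLMP, a junctional molecule related to the coxsackievirus receptor, measured 32.3 ± 17.4 CPM (SD, n = 4), JAM3 28.0 ± 16.4 CPM, CXADR 10.8 ± 6.99 CPM and F11R 6.83 ± 3.22 CPM. Library 2 gave the lowest value for these 4, with 6.23, 3.70, 2.04 and 2.04 CPM. The fifth, JAM2, an adhesion molecule of vascular junctions, measured 4.36 ± 1.76 CPM and was highest in library 2, at 6.91 CPM against 2.87 to 3.91 CPM. ROBO4, a receptor of endothelium, and VSIG4 of macrophages had no count. CLMP, JAM3, CXADR and F11R are also known from epithelia and other cells.

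Neural Ig genes ranged from clearly expressed to no count. Of 23 matched, 9 were expressed, or 39.1%, against 52.9% of all rows. Another 13 never reached 1 CPM, and 1 reached it in some libraries only. Of the 13, 7 had no count, namely CHL1, the closest relative of L1CAM in the list, CNTN5, CNTN6, DSCAM, DSCAML1, OPCML and DCC. The expressed ones were led by receptors that also act outside the nervous system. NEO1, the neogenin receptor, measured 282 ± 113 CPM (SD, n = 4), ROBO1 and ROBO2, receptors for Slit proteins, 100.2 ± 35.3 and 56.9 ± 20.6 CPM, and the contactin CNTN1 23.3 ± 13.3 CPM. All 4 were lowest in library 2, CNTN1 with 3.45 CPM.

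Of the nectins and their relatives 8 of 14 were expressed (57.1%), and of the leukocyte Ig genes 4 of 11 (36.4%). Over all rows the share was 52.9%. KIRREL1, an adhesion molecule of kidney podocytes and other cells, averaged 94.9 ± 62.5 CPM (SD, n = 4), and library 2 had 2.53 CPM against 112 to 137 CPM in the others. CADM1 measured 42.7 ± 12.6 CPM and CD58, the widely expressed ligand of the lymphocyte receptor CD2, 49.5 ± 13.2 CPM. CD22, CD6 and CD96, which are restricted to lymphocytes, had no count.

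**Figure D4:**
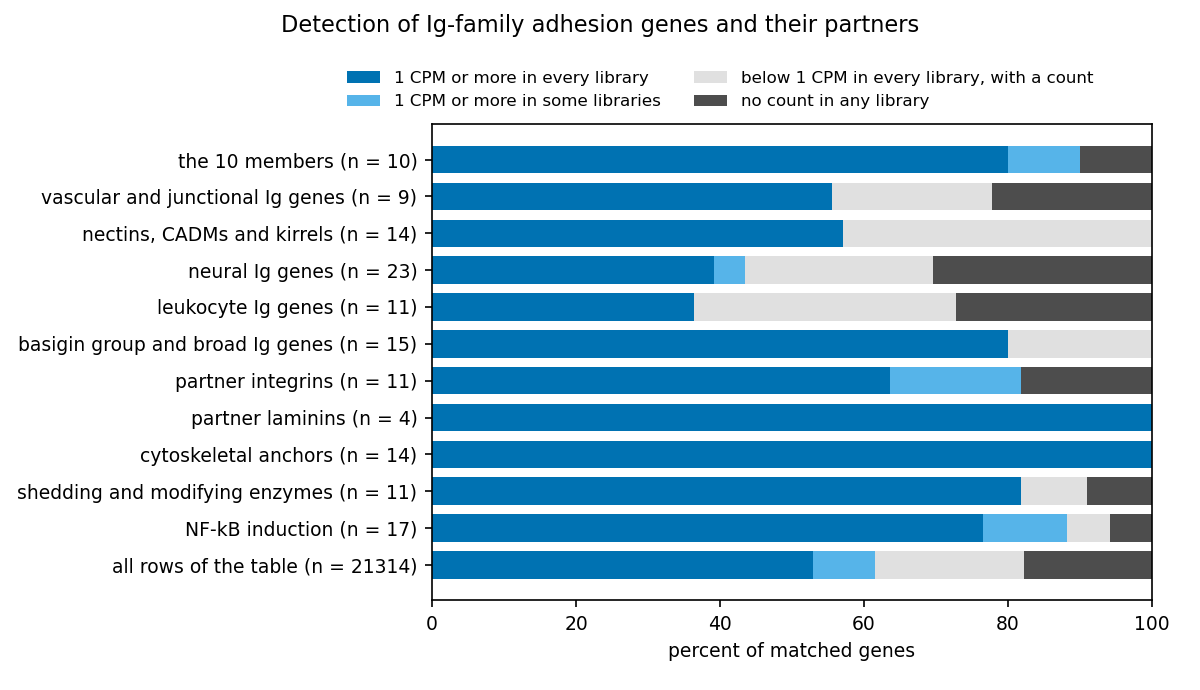
Percent of the matched genes of each list that reached 1 CPM in every RF/6A library, in some libraries, in none but with counts, or that had no count, for the members, other Ig-family adhesion genes, their partners and all 21314 rows. The members (8 of 10) and the broad group around basigin (12 of 15) have the same share expressed, and leukocyte (4 of 11) and neural Ig genes (9 of 23) have the lowest shares.

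Of 11 matched subunits of partner integrins 7 were expressed (63.6%, against 52.9% of all rows), and 8 without library 2. ITGAM and ITGA9 had no count. ITGB1, the beta1 subunit that pairs with alpha4 to bind VCAM1, measured 1383 ± 513 CPM (SD, n = 4), and ITGA4 measured 12.8 ± 6.69 CPM. ITGB2, the beta2 subunit of the ICAM1 receptors and usually confined to leukocytes, had 99.3, 108, 106 and 108 CPM in libraries 1 to 4. Its leukocyte alpha partners were far lower in reads, with ITGAL at 1.85 ± 0.384 CPM and ITGAX at 4.42 ± 1.42 CPM. Leukocyte markers were low, with 2 of 11 matched genes expressed (18.2%, against 52.9% of all rows). Their summed level lay between 15.4 and 17.3 CPM, and CD3E, ITGAM and TYROBP had no count. ITGAV and ITGB3, which together form an integrin that binds THY1, were lowest in library 2, at 3.39 CPM against 57.5 to 77.1 CPM for ITGAV and at 0.432 CPM against 9.19 to 9.90 CPM for ITGB3. ITGA5, the alpha subunit of the fibronectin receptor, was highest there, at 334 CPM against 213 to 228 CPM.

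All 14 cytoskeletal anchors were expressed. ANK2 and ANK3, ankyrins that hold L1-type molecules to spectrin, measured 56.4 ± 3.04 and 12.2 ± 6.79 CPM (SD, n = 4). Among L1-type molecules, L1CAM and CHL1 had no count. NRCAM was expressed, at 8.38 ± 4.74 CPM with 2.04 CPM in library 2, and NFASC measured 0.43 ± 0.315 CPM. Of 11 enzymes and signalling proteins acting on Ig-family adhesion molecules 9 were expressed (81.8%, against 52.9% of all rows). ADAM10, a protease that sheds L1CAM among others, measured 228 ± 121 CPM, and ADAM17, which sheds ALCAM and VCAM1, 63.5 ± 37.7 CPM. Both were low in library 2, at 47.9 and 7.83 CPM. PTPN11 and PTPN6, phosphatases recruited by the PECAM1 tail, measured 62.4 ± 42.9 and 7.97 ± 3.37 CPM, PTPN11 with 2.16 CPM in library 2 and PTPN6 with 12.9 CPM there.

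Several members sit beside relatives in the rhesus genome (RefSeq, assembly T2T-MMU8v2.0, used for gene order only). ICAM1 adjoins ICAM4 on chromosome 19, with ICAM5 next, and they measured 6.04 ± 2.07 and 3.52 ± 0.50 CPM (SD, n = 4) beside 28.9 CPM for ICAM1. BCAM adjoins NECTIN2, which measured 32.7 ± 13.3 CPM and was highest in library 2, at 52.5 CPM against 23.9 to 27.6 CPM. BCAM was highest there too, as were 43.8% of all genes whose mean reached 1 CPM. On chromosome 14, THY1 adjoins NECTIN1, which measured 0.17 ± 0.135 CPM, and ESAM lies near ROBO3 at 6.43 ± 4.49 CPM and ROBO4 without a count. MCAM and THY1 also lie near each other there, with 4 protein-coding genes between them, at 35.9 and 121 CPM. Whether any reads were shared between neighbours could not be checked, because the strand setting of the counting is not given in the sources used here.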

How the data were processed

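Total RNA of RF/6A was sequenced on a BGISEQ-500, per the labels' protocols. The authors deposited estimated counts per Ensembl rhesus gene as whole numbers. The submitters' processing notes name Salmon and DESeq2 with no version or role, and the genome build is not given in the sources used here. Reads that fit several transcripts equally are shared among them by Salmon. Symbols came from a table of Ensembl identifiers (14654 of 21314 rows matched). Rows without a symbol were treated as not measured and held 13.1% to 21.7% of a library's counts.

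Counts were scaled with TMM in edgeR 4.0.16 (R 4.3.3), with plain CPM, DESeq2 1.42.0 size factors, filterByExpr (minimum count 10) and each library left out as alternatives. Differences used log2(CPM + 0.5) and an exact sign-flip test with Benjamini-Hochberg adjustment over 8 pairs. Dispersion was estimated for each gene alone (prior degrees of freedom 0) in the 12167 genes kept by filterByExpr, and the code was tested on simulated data. Dixon's critical value was 0.829. Poisson intervals are 95%, and they and the floor cover counting error only. Division by transcript length was planned but not done, as no lengths were at hand. No sequences are shown.

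The members and lists were chosen with earlier results of these data known. The rule named all members, the 4 highest genes of each list, genes without counts, and 5 endothelial markers. ICAM5, JAM2, REL, TNFAIP3, SELE, CCL2, IRF1, NFKBIA, NECTIN1, ROBO3, NRCAM, NFASC, ITGA4, ITGAL, ITGAX, ITGB3, ANK2, ANK3, ADAM17, ST8SIA4, PTPN6 and PTPN11 were chosen after their values were seen. Not every gene the rule names is given. The marker list not discussed above, of pericytes and smooth muscle, was expressed in 8 of 11 matched genes (72.7%, against 52.9% of all rows). Its summed level lay between 348 and 879 CPM.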

Additional observations from a re-analysis of the deposited data

Results flagged for a closer look

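Dixon's gap test was run on the 9 members with counts and on 45 of the other genes given with values above. Of these 54 genes 18 had a separated library, which chance alone gives in about 1 of 20 groups. It was library 2 in 18 of 18, so the values are not independent, and 33.8% of all genes whose mean reached 1 CPM had such a library. Its part in each value was not tested.

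Library 2 was low, in CPM, for MCAM (21.3), F11R (2.04), CLMP (6.23), CNTN1 (3.45), NEO1 (113), ROBO1 (47.6), AXL (36.8), NPTN (57.6), ITGB1 (622), ITGB3 (0.432), ADAM10 (47.9), FGFR1 (103) and MAP2 (13.3). It was high for BCAM (62.2), ICAM4 (9.13), NECTIN2 (52.5), ROBO3 (13.1) and ITGA5 (334). Ranges of the other 3 libraries for MCAM and BCAM stand with those genes above.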

How the results depend on the processing

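The number of members expressed was 8 with TMM, DESeq2 size factors and filterByExpr, 7 with plain CPM (VCAM1 lost), 7 at a threshold of 2 CPM and 9 at 0.5 CPM, and 8 to 9 with 1 library left out. All 8 differences between endothelial-restricted and mesenchymal or neural members kept their sign under every scaling, pseudocount and left-out library that was run. The signs could not have changed, because both genes of a pair share the scaling and the pseudocount. Each pair also had 1 sign in all 4 libraries, so leaving 1 out could not reverse its mean. Over these settings, PECAM1 minus ALCAM ranged from -7.89 to -7.45 and ESAM minus NCAM1 from -6.40 to -5.43. PECAM1 minus L1CAM ranged from 1.79 to 4.66, since it rests on the pseudocount. With 3 libraries the smallest exact sign-flip permutation p was 0.25. Mean CPM moved by more than 1 SD for ICAM1 alone, whose SD was small at 2.15 CPM, to 31.9 without library 2. That is above its highest value with all libraries, 31.7 CPM, because TMM was run again. The adjusted sizes of the libraries kept then fell, in library 1 from 21980673 to 20335962, which raises the CPM of every gene. Division by length was not run, as no lengths were at hand. No paired analysis was possible because the libraries form 1 group, beyond the differences between genes, which were already taken within each library. ESAM, PECAM1 and VCAM1 are limited by depth, with 15 to 76 counts per library.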

Other observations

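Beyond the members, 38 Ig-family genes reached a mean of 1 CPM. Library 2 was the lowest library for 24 of them and the highest for 12 under TMM, or 63.2% and 31.6%, against 48% and 43.8% of all 12453 genes at that level. With plain CPM it was the lowest for 28 and the highest for 7, or 73.7% and 18.4%, against 59.7% and 31.6%. These shares are descriptions with no test, and the list was chosen with earlier results of these data known.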
